A study of Mus musculus with 54 samples.

Results

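Mouse embryonic stem (ES) cells were driven for 6 days along 2 routes out of pluripotency, and neural progenitor cells (NPC) were compared with mesendoderm (ME), the mixed precursor of mesoderm and endoderm that forms at the primitive streak. Both populations were isolated by a fluorescent reporter, and each was sequenced as 1 library, so that the comparison uses 2 of the 54 samples of the series. NPC came from 46C, an ES line with GFP knocked into Sox1, kept in serum-free N2B27 medium and sorted for GFP. ME came from T-GFP cells, in which GFP reports the streak gene T, kept in medium with 15% fetal calf serum without leukemia inhibitory factor (LIF) and sorted for GFP. Both lines are of 129/Ola strain per the labels, neither label gives a genotype beyond the reporter, and both libraries were made from poly(A)-selected RNA with a stranded kit.

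The values are FPKM (fragments mapped to a gene, scaled by its length and by the size of the library), deposited by the authors in a table of 7 columns. The other 5 columns give the setting in which the 2 libraries are read. Those of undifferentiated wild-type ES cells with LIF (day 0) and of wild-type cells 2 and 6 days after LIF withdrawal in 15% serum were averaged by the authors: 3 libraries make up the first, 2 the second and 3 the third. These mix the lines CJ7 and JF4 (129S1/SVImJ) with, after day 0, J1 (129S4/SvJae), in proportions that differ between days. Day 4 of LIF withdrawal (CJ7) is 1 library. The last, neural stem cells (NSC), is 1 library of sorted 46C derivatives that were expanded in N2B27 with 10 ng/ml each of EGF and FGF-2 to passage 15. With 1 library on each side there was no replicate check and no test was possible. Lineage, ES line, reporter and medium all differ between NPC and ME and cannot be told apart.

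Neural induction and streak formation are alternative fates of the epiblast. Signals of the Wnt, Nodal and BMP families induce the streak, where the T-box factors T and Eomes are switched on. Cells that escape these signals turn on Sox1, Sox3 and Pax6 and form the neural plate, which retinoic acid and FGF then pattern from head to tail.

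Of 39055 entries with a unique name and complete values, 12510 reached 1 FPKM in 2 or more of the 7 columns. Just inside this filter stood Hist1h1d (0.574 FPKM in NPC, 1.09 in ME) and just outside it Gpt (0.305 and 0.701). For the genes inside it the difference NPC minus ME was taken on the log2(FPKM + 1) scale, which understates the change of low genes. A difference of at least 2 log2 units was counted as past the size rule. By this rule 405 genes were higher in NPC (3.24% of the 12510) and 328 were lower in NPC, that is, higher in ME (2.62%). The median difference over all genes was 0.10, and 9751 genes (77.9%) lay within 1 unit of 0. Just past the rule stood Rps19-ps3 (7.22 FPKM in NPC, 1.06 in ME) and Kctd6 (3.14 and 15.6), and just short of it Anxa5 (5.04 and 23.1).

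As a measure of how often 2 libraries of 1 condition differ that much, the same count was made between the 2 libraries of each group in a second table, of 46C cells treated with 2 µM retinoic acid for 2 or 4 days. Of 15705 genes, 0.236% lay past the rule between the 2 wild-type libraries at day 2 and 0.191% at day 4. Between the 2 libraries of cells with a deletion at the Haunt locus, the shares were 0.293% and 0.433%. The libraries with the deletion carry different clone labels, KO-i and KO-j, so their shares may also hold differences between clones. That table was normalized separately, and its libraries come from another culture scheme. These shares therefore describe the spread between libraries there and not in NPC or ME. The spacing of the values of short entries gave its best match at a depth of 27.7 M reads for NPC and 40.6 M for ME. These matches rest on 16 of 480 short entries in NPC and 11 of 382 in ME. How many entries would line up by coincidence was not tested, so neither the depths nor their difference is established.

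**Figure D1:**
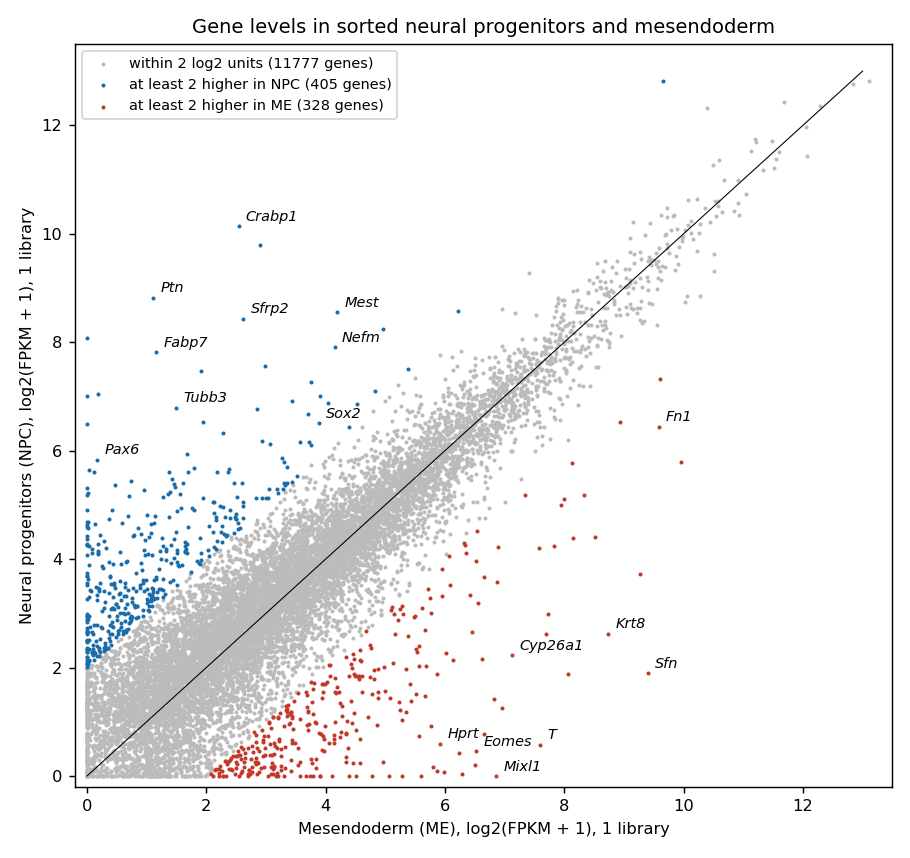
Level of each of 12510 genes in ME (horizontal axis) and NPC (vertical axis), both in log2(FPKM + 1), 1 library each. Blue points are the 405 genes at least 2 log2 units higher in NPC, red points the 328 at least 2 higher in ME, and the line marks equal levels; Crabp1 and Ptn stand far above it, T and Sfn far below.

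The markers of the 2 fates followed the labels. Pax6, the paired-box factor of neural progenitors (chromosome 2, 105515670 to 105537521, build mm9), was at 55.9 FPKM in NPC and 0.127 in ME, a difference of 5.66 log2 units. Eomes (chromosome 9, 118387307 to 118395250) was at 0.377 in NPC and 90.8 in ME, a difference of -6.06. T (chromosome 17, 8627288 to 8635361) was at 0.492 in NPC and 192 in ME, and Sox1 (chromosome 8, 12395519 to 12399555) at 21.8 in NPC and 0.162 in ME. T and Sox1 carry the reporters by which the cells were sorted, so their separation describes the sort and is not a finding. In bulk RNA, fewer cells of a type and less RNA per cell cannot be told apart.

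Neural transcription factors were higher in NPC. Of 22 factors of the neural plate and neural progenitors, 18 passed the filter, 13 were higher in NPC past the rule and 0 lower, with a median of 3.85. Over all genes 3.24% were higher in NPC and the median was 0.10. Sox21, of the Sox family, was at 36.3 FPKM in NPC and 0.00693 in ME. The POU factors Pou3f2 and Pou3f3 reached 24.5 and 22.9 FPKM in NPC, against 0.0123 and 0.00872 in ME. Nr2f1, an orphan nuclear receptor of neural tissue, was at 38.7 in NPC and listed at 0 in ME.

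Not every factor used in the neural plate was low in ME. Zic2 was at 40.4 FPKM in NPC and 61.8 in ME, Zic5 at 16.8 and 32.5, and Sall3 at 2.74 and 3.22, so 3 of the 18 had the higher value in ME. Zic1, of the same zinc-finger family, was at 20.8 against 0.166. Sox2 is shared by pluripotent and neural cells, and its 89.5 FPKM in NPC stood beside 152 in the day 0 mean, 88.1 in NSC and 13.8 in ME. Irx3 (91.5 against 2.86) and Meis2 (108 against 6.22) had the highest NPC levels of the list.

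The filter hides part of the NPC program, because a gene on only in NPC has no second column to pass through. Sox1 itself failed it. Conversely, a gene that passed only through the fate where it is high had to differ, so counts over passing members describe a list and support nothing further. Among all entries that failed, 70 lay past the rule toward NPC and 6 toward ME, and 16 had at least 10 FPKM in NPC against 1 in ME. The entries that failed include Nhlh2 (21.6 FPKM in NPC), a helix-loop-helix factor of young neurons, Tfap2b (15.1, ME 0.0426) and Neurod4 (11.1). Nhlh2 and Neurod4 were listed at 0 in ME.

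Many members of a list of neuron genes were also higher in NPC. Of 25 neuron genes 20 passed, with 12 higher in NPC past the rule, 0 lower and a median of 2.56. The neuronal tubulin Tubb3 was at 109 FPKM in NPC and 1.81 in ME (5.30). The RNA-binding proteins Elavl3 and Elavl4 were at 29.1 and 18.3 in NPC against 0.329 and 0.137 in ME. Nefm, a neurofilament subunit, was at 238 against 16.7 (3.75), yet its partner Nefl was at 131 in NPC and 132 in ME. L1cam (1.99 in NPC, 7.40 in ME) and Isl1 (0.951 and 2.84) also had the higher value in ME. Not all of the list was limited to neural columns. Stmn2 was at 99.1 in NPC, 59.2 in ME and 131 in the day 0 mean, where Tubb3 was at 34.6.

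NSC, from the same line after long expansion, had low levels of several of these genes. Tubb3 was at 1.17 FPKM there, Elavl3 at 0.546 and Nefm at 3.40, below NPC in each case, but Map2 was at 89.4 against 16.3 in NPC, and Ncam1 at 148 against 26.4. Some radial glia genes were far higher in NSC than in NPC. Fabp7, a lipid-binding protein of radial glia, was at 225 FPKM in NPC, 1227 in NSC and 1.23 in ME, while Slc1a3, a glial glutamate transporter, was at 2.66 in NPC, 183 in NSC and 2.65 in ME. Of the 15 radial glia and stem cell genes that passed, of 18, 6 were higher in NPC past the rule and 0 lower (median 1.11). Nestin (Nes) was at 142 and 65.6, and vimentin (Vim) at 1186 and 565, short of the rule.

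Of the Notch pathway, which holds neural progenitors back from differentiation, 15 of 27 genes passed with 3 higher in NPC, 0 lower and a median of 1.07. The ligand Dll1 was at 28 FPKM in NPC and 3.37 in ME (2.73). Dll3 had the opposite sign, at 3.92 and 8.74, as had the effector Hes1, at 17.5 and 30.8. Hes5, the other classical effector, failed the filter with 7.33 in NPC and was listed at 0 in ME.

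**Figure D2:**
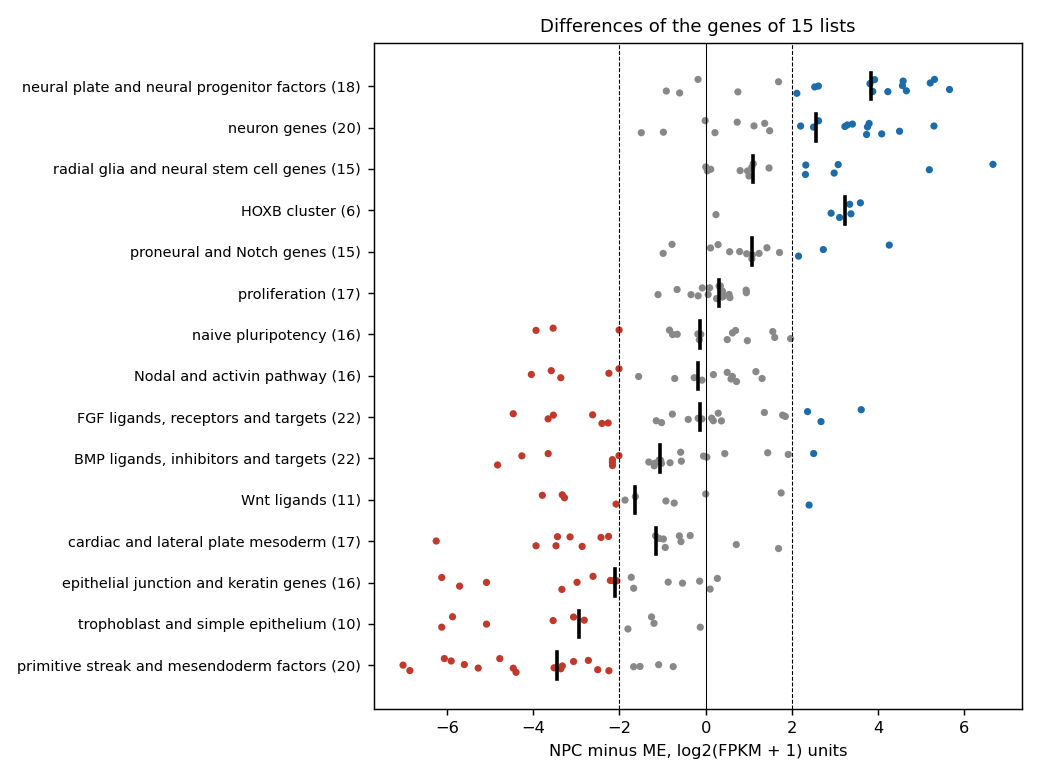
Difference NPC minus ME in log2(FPKM + 1) units (horizontal axis) for each gene that passed the filter in 15 lists, the number of genes in parentheses; black bars are medians and dashed lines the size rule of 2 units. The neural plate list has its median at 3.85 and the primitive streak list at -3.44, with proliferation genes within the dashed lines.

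Primitive streak genes formed the mirror image. Of 24 factors 20 passed, 16 were higher in ME past the rule and 0 higher in NPC, with a median of -3.44. The 16 include T, the reporter gene of the ME sort. Over all genes 2.62% lay past the rule in this direction. Mixl1, a homeobox gene of the streak, was at 115 FPKM in ME and listed at 0 in NPC, and Msgn1 (47.4), Mesp1 (37.7), Gsc (26.4) and Evx1 (20.1) were also listed at 0 in NPC. Sp5, a zinc-finger target of Wnt signaling, was at 62.2 in ME and 0.0575 in NPC (-5.90).

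The summed level of the 24 streak genes was 833 FPKM in ME and 16.6 in NPC, with 7 listed at 0 in NPC and 0 in ME. Of the ME sum 192 came from T, the reporter gene of the ME sort. The summed level of the 22 neural plate genes was 777 FPKM in NPC and 168 in ME. Of the NPC sum 21.8 came from Sox1, the reporter gene of the NPC sort. Most of the ME sum of the neural plate genes came from Zic2, Zic5, Mycn (30.6) and Sox2. In the unsorted day 4 library of LIF withdrawal T was at 204 FPKM and Eomes at 67.6, and in the day 6 mean they were at 56.1 and 29.7.

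The promoters of some streak genes carry the core sequence CTTTGA that TCF/LEF factors, the DNA-binding partners of beta-catenin, recognize. It is shown here because T, Sp5, Msgn1 and Mesp1 are among the streak genes higher in ME past the rule. Stretches are from RefSeq (build GRCm38.p6) and run 5′ to 3′ on the gene's strand, upstream of its start, with the match in capitals (CTTTGA, or TCAAAG where it lies on the other strand).
T, chr17:8434173-8434221, plus strand: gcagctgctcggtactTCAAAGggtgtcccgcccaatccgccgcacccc
Sp5, chr2:70474792-70474851, plus strand: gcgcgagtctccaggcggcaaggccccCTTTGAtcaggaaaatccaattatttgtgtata
Msgn1, chr12:11209059-11209118, minus strand: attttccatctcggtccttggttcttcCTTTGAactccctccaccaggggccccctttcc
Mesp1, chr7:79793591-79793648, minus strand: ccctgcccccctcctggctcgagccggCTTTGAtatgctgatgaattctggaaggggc
The match begins 234 bases before the start in T, 104 in Sp5, 143 in Msgn1 and 31 in Mesp1, and the last 3 hold a second match in the window.

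Over the 250 bases before the start, on both strands, 4 of the 13 streak genes higher in ME that have a promoter entry held the core, and 3 of 11 neural plate genes higher in NPC. It occurs in 14.1% of all 27025 promoters and in 10.1% of the 8844 of genes that passed the filter. Among promoters of all genes past the rule, 35 of 204 higher in ME and 30 of 248 higher in NPC held it. A further 5 short motifs were searched in the same way. In the 13 streak and the 11 neural promoters, GGTGTGA (T-box) was found in 0 and 0, ACAAAG (SOX) in 4 and 1, CAGACA (SMAD) in 2 and 0, CAGGTG (SNAI-type E-box) in 4 and 0, and TGGGAA (RBPJ) in 4 and 3. Their shares of all promoters were 3.31%, 16.5%, 17.1%, 17.1% and 21.5%. TCAAAG and ACAAAG share their last 5 letters, but no run can be both. Matches are letters in a window, not shown sites.

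Signals were read by ligand, inhibitor and target. Of 11 Wnt ligand genes that passed, of 19, 4 were higher in ME past the rule and 1 in NPC (median -1.63). Wnt3, which induces the streak, was at 21.3 FPKM in ME and 1.23 in NPC, and Wnt5b at 26.5 and 1.84. Wnt7b went the other way, with 7.02 in NPC and 0.519 in ME (2.40). Wnt8a, at 29.3 in ME and 7.30 in NPC, was short of the rule.

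Secreted Wnt inhibitors were divided between the fates. Sfrp2 was at 345 FPKM in NPC and 5.15 in ME (5.81), and Sfrp1 at 78.8 and 3.85 (4.04). In ME the inhibitor Dkk1 was at 7.44 against 0.125, and Rspo3, an enhancer of the signal, at 37.2 against 1.32 (-4.04). Of 12 Wnt target genes that passed, of 14, 2 were past the rule, Sp5 and T, both toward ME. T carries the reporter of the ME sort, so its place here describes the sort. Axin2, a general target, was at 34.8 in ME and 9.90 in NPC (-1.72), and Lef1 at 35.5 and 12.7 (-1.41), both short of it.

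BMP genes were mainly higher in ME. Of 26, 22 passed, with 7 higher in ME past the rule, 1 in NPC and a median of -1.06. The ligand Bmp4 was at 38.0 FPKM in ME and 1.03 in NPC (-4.26). Its targets Msx1 (46.4 against 0.672), Msx2 (50.4 against 3.09) and Id1 (38.0 against 7.73) were higher in ME past the rule. The Id family was split: Id4, an inhibitor of differentiation in neural progenitors, was at 8.03 in NPC and 0.590 in ME (2.51), and Id2 at 36.6 and 8.95 (1.92).

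Of 16 Nodal and activin genes that passed, of 18, 5 were higher in ME past the rule and 0 in NPC (median -0.17). The co-receptor Tdgf1 was at 225 FPKM in ME and 17.9 in NPC (-3.58), Foxh1, the DNA-binding partner of the SMADs, at 39.5 and 2.95, and Nodal at 15.9 and 2.57. Lefty2 was at 41.9 in ME and 1.60 in NPC (-4.04), while Lefty1 was at 9.91 and 15.8 (0.62). Receptors and SMADs (Acvr1b, Acvr2b, Smad2) lay within 1 unit.

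FGF ligands differed in direction. Fgf8 was at 97.5 FPKM in ME and 3.47 in NPC (-4.46), and Fgf5, the ligand of the primed epiblast, at 32.9 and 1.69. Fgf15 was at 26.1 in NPC and 4.26 in ME (2.37), and the receptor Fgfr3 at 7.54 and 0.334 (2.68), while Fgfr1 was similar at 30.7 and 40.9. Over the 22 genes that passed, of 27, 3 were higher in NPC, 6 in ME, and the median was -0.13.

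Of 17 retinoid genes 10 passed, 2 were higher in NPC past the rule and 1 in ME, with a median of -0.69, and those in NPC had very high levels. Crabp1 and Crabp2, which bind retinoic acid inside the cell, were at 1129 and 886 FPKM in NPC, and at 4.81 and 6.49 in ME. The differences of 7.60 and 6.89 were the third and the fifth largest toward NPC among named genes. In no other column did either exceed 14.9 FPKM, and in NSC they were at 0.405 and 0.308. Cyp26a1, the enzyme that degrades retinoic acid, was at 139 FPKM in ME and 3.68 in NPC (-4.90), whereas its relative Cyp26b1, which failed the filter, was at 0.149 and 9.59.

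The Cyp26a1 promoter holds a retinoic acid response element of the DR5 type, a direct repeat spaced by 5 bases, printed because it is the 1 promoter with that element among the 204 of genes higher in ME. It was found in 24 of the 27025 promoters (0.0888%) and in 0 of 248 of genes higher in NPC. The element, in capitals, lies 32 to 16 bases before the start.
Cyp26a1, chr19:37697754-37697807, plus strand: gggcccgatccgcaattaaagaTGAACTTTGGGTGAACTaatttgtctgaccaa

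HOX genes, which encode position along the body axis, were higher in NPC through most of the detected HOXB cluster and at Hoxa2. Of 10 HOXB genes 6 passed, 5 of them higher in NPC past the rule, with a median of 3.23. Hoxb2, Hoxb3, Hoxb4, Hoxb7 and Hoxb8 were at 14.0, 10.8, 8.28, 14.5 and 9.77 FPKM in NPC, and at 0.0410 to 0.479 in ME. Hoxb1, the most 3′ gene, was on in both, at 4.05 and 3.27.

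In the HOXA cluster 5 of 11 genes passed and 1 was past the rule, Hoxa2, at 24.6 FPKM in NPC and listed at 0 in ME. Hoxa3 was at 3.56 against 0.225 (1.90), Hoxa4 at 2.36 and listed at 0 in ME, and Hoxa7 at 1.14 against 0.821. No HOXC gene of 9 passed, and of 9 HOXD genes only Hoxd9 did, at 1.11 in ME and listed at 0 in NPC. Of the HOX cofactors Meis1 (26.8 against 0.603, 4.12) and Meis2 were higher in NPC past the rule, while Meis3 was at 102 and 73.9 and Pbx3 at 46.0 and 37.9.

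Haunt (Gm15055), the long noncoding RNA upstream of HOXA that the series is about, was at 18.5 FPKM in NPC and listed at 0 in ME. It was at 53.7 in the day 0 mean, 4.13 at day 2, 0.175 at day 4, 0.266 at day 6 and 66.3 in NSC. The 3 columns of LIF withdrawal and ME were thus all below NPC, and day 0 and NSC above it. Within the same region 5730446D14Rik (Hoxaas2) was at 10.7 in NPC and listed at 0 in ME. At the other end of the cluster the streak gene Evx1 and its antisense neighbour 5730457N03Rik, at 13.3 in ME and 0.107 in NPC, stood the opposite way. Reads of antisense partners may not have been separated, since the use of strand in counting is not stated.

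**Figure D3:**
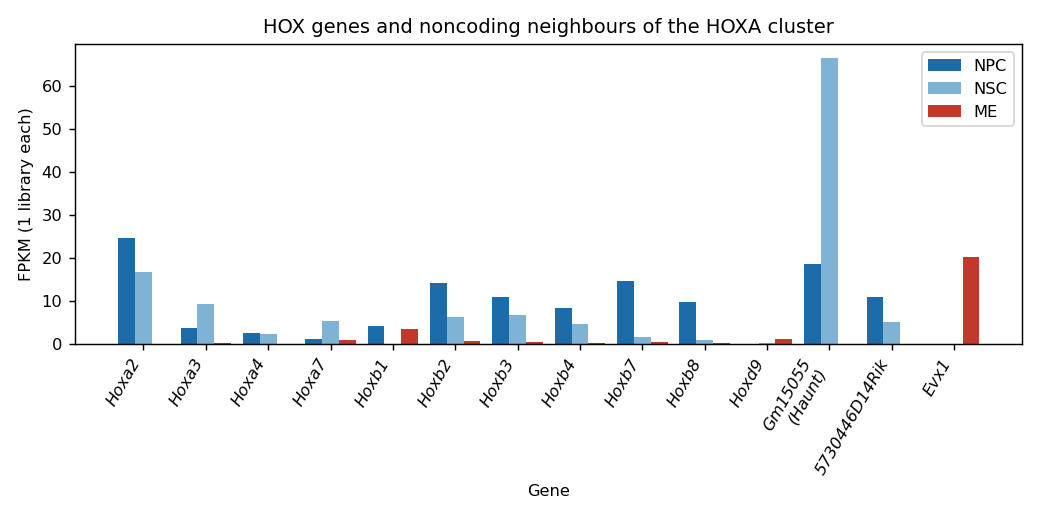
FPKM (vertical axis, from 0) of HOX genes, of Haunt and of noncoding and coding neighbours of HOXA in NPC, NSC and ME, 1 library each. Hoxa2 at 24.6 and Hoxb7 at 14.5 are high in NPC and near or at 0 in ME, and Evx1 is seen in ME alone.

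Along the neural axis, hindbrain factors were detected in NPC more widely than forebrain factors. Of 20 forebrain and midbrain factors 6 passed and 1 was past the rule, Lmx1b, at 5.39 FPKM in NPC and listed at 0 in ME. Otx2, the head gene, was at 5.23 in NPC and 7.57 in ME. Of 14 hindbrain and spinal cord genes 13 passed, with 5 higher in NPC and 2 higher in ME (Fgf3 and Nkx1-2), and Egr2, which marks hindbrain segments, was at 2.71 in NPC against 0.0904. Of 10 dorsal factors of the neural tube 5 passed, with Pax3 (28.9 in NPC), Pax7 (6.38, both listed at 0 in ME) and Zic1 higher in NPC and Msx1 and Msx2 in ME, while the ventral factor Olig2 was at 0.227 in NPC, against 211 in NSC.

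Epithelial genes were higher in ME. Of 16 junction and keratin genes that passed, of 17, 9 were higher in ME past the rule and 0 in NPC (median -2.10). The simple-epithelial keratins Krt8, Krt18 and Krt19 were at 427, 207 and 99.4 FPKM in ME and at 5.15, 5.14 and 0.716 in NPC. Dsp, which links keratin to desmosomes, was at 123 and 1.38 (-5.71). E-cadherin (Cdh1), the adhesion protein of epithelia and ES cells, was at 99.3 in ME and 11.7 in NPC (-2.98), and N-cadherin (Cdh2) at 61.7 and 129 (1.05). These keratins also mark trophoblast, and of 14 trophoblast and simple-epithelium genes 10 passed, with 6 higher in ME and 0 in NPC (median -2.94). The summed level of these 14 genes was 922 FPKM in ME and 56.0 in NPC, and 3 were listed at 0 in ME and 4 in NPC. Of the trophoblast factors in ME, Tfap2c was at 16.6, Cdx2 at 7.51, Gcm1 at 2.80 and Ascl2 at 1.29, and their part in the keratin levels was not tested.

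Mesenchymal genes did not form 1 side. Of 17, all passed, with 3 higher in ME (Snai1, Fn1, Has2), 1 in NPC and a median of -0.62. Fibronectin (Fn1) was at 765 FPKM in ME and 85.8 in NPC (-3.14), and Snai1, the repressor of Cdh1, at 14.6 and 0.368. Zeb1, another such repressor, was at 19.6 in NPC and 1.74 in ME (2.91).

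Mesoderm and endoderm lists differed in their counts. Of 24 cardiac and lateral plate genes 17 passed, with 8 higher in ME and 0 in NPC (median -1.16). Hand1 was at 76.7 FPKM in ME and 0.0214 in NPC (-6.25), Kdr, the receptor of vascular precursors, at 14.4 and 0.386, and Pdgfra at 12.5 and 0.244. The contractile genes Myl7 and Tnnt2 were at 0.914 and 1.48 in ME. Of 15 definitive endoderm genes 7 passed and 2 were higher in ME; Foxa2 was at 1.32 in ME and 0.377 in NPC, and Sox17, which failed the filter, at 0.725 and 0.0124. Of 22 blood and endothelial genes 9 passed and 1, Kdr, was past the rule. Of 20 paraxial and intermediate mesoderm genes 9 passed, with 2 higher in NPC past the rule (Pax3 and Dll1), 2 in ME (Msgn1 and Lhx1) and a median of -0.55.

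Neither library was free of pluripotency transcripts. Pou5f1 was at 486 FPKM in ME and 91.0 in NPC (-2.40), against 997 in the day 0 mean and 0.391 in NSC. Of 16 naive pluripotency genes that passed, of 18, 3 were higher in ME (Tbx3, Klf5, Nanog) and 0 in NPC, with a median of -0.13. Nanog was at 33.6 in ME and 7.62 in NPC. For other naive genes NPC had the higher value, all short of the rule: Esrrb was at 4.62 in NPC and 0.909 in ME, Dppa5a at 41.9 and 13.1, and Nr0b1 at 2.92 and listed at 0 in ME. All were far below day 0, where Esrrb was at 85.5 and Dppa5a at 905.

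**Figure D4:**
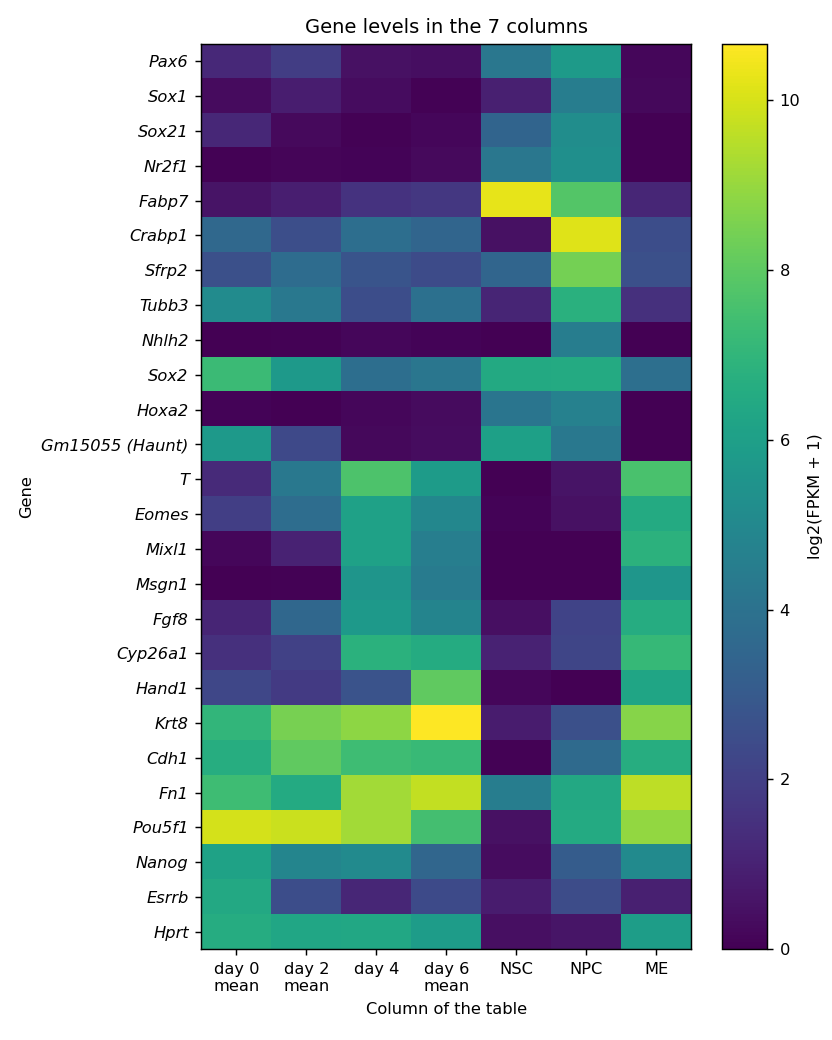
Level in log2(FPKM + 1) (color) of 26 genes (rows) in the 7 columns of the table; days 0, 2 and 6 are the authors' means and the others single libraries. Streak genes such as T are bright in ME, day 4 and day 6, and Pax6 and Nr2f1 in NPC and NSC; Hprt is dark in the NPC and NSC columns.

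In some gene groups few or no genes were past the rule. Lists of this size hold few such genes at the shares over all genes, 3.24% toward NPC and 2.62% toward ME. Of 17 proliferation genes 0 were past the rule in either direction (median 0.31), and Mki67 was at 137 FPKM in NPC and 110 in ME. Of 19 cholesterol synthesis genes 0 were past it (median 0.11), and of 12 fibroblast and feeder genes that passed 0 (median -0.22). Subunits of the BAF chromatin complex also had 0 of 13 past the rule. Of 22 glycolysis and hypoxia genes 1 was, Bnip3, at 70.9 in NPC and 12.2 in ME (median 0.61).

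Of 20 imprinted genes 19 passed, with 2 higher on each side past the rule and a median of 0.009. Over all genes 3.24% lay past it toward NPC and 2.62% toward ME. The 4 imprinted genes past the rule are given here. Mest was at 376 FPKM in NPC and 17.3 in ME (4.36), and Grb10, an adaptor that restrains insulin signaling, at 176 and 2.74 (5.57). Igf2 was at 115 in ME and 11.0 in NPC (-3.28), and Peg3 at 280 and 53.7 (-2.36). In the second table Grb10 ranged from 106 to 230 in the 8 libraries of 46C cells under retinoic acid.

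Families in which 1 member was past the rule toward NPC and another toward ME gave further pairs. Of the Eph receptors Epha7 (47.7 against 3.51) and Epha4 (32.3 against 3.31) were higher in NPC, and Epha1 (0.789 against 21.8) in ME. Among 33 axon guidance genes that passed, of 41, 7 were higher on each side, with Sema5b (48.7 against 0.0285) and Ntn1 (16.7 against 1.34) toward NPC and Unc5b (0.720 against 19.3) and Nrp2 (3.26 against 34.0) toward ME. Cadherins were divided as Cdh6 and Cdh22 against Cdh1, and insulin-like growth factor binding proteins as Igfbp5 against Igfbp3 (2.67 in NPC, 266 in ME). All 12 Sox genes that passed but Sox15 had the higher value in NPC, 5 past the rule. Of 17 T-box genes 8 passed and 3 were higher in ME past the rule, among them T, the reporter gene of the ME sort. T was also counted among the streak genes. Over all genes 3.24% lay past the rule toward NPC and 2.62% toward ME.

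The 15 named genes with the largest differences toward NPC, among those with at least 10 FPKM there, were Snord15b, Ptn, Crabp1, Snora78, Crabp2, Fez1, Fabp7, Snora17, Sfrp2, Pax6, Sema5b, Grb10, Nr2f1, Tubb3 and Sox21. Ptn, a secreted growth factor, was at 452 FPKM in NPC, 1885 in NSC and 1.16 in ME. The 3 small nucleolar RNAs were listed at 0 in ME, but values of such short entries are uncertain. Of 19 entries of this class that passed, 4 lay past the rule toward NPC and 2 toward ME. Those toward NPC include Snora65, at 7257 FPKM in NPC and 809 in ME. Toward ME the 15 were Sfn, T, Mixl1, Gbp2b, Hand1, Igfbp3, Krt8, Eomes, Sp5, Krt19, Pdlim3, Gbp2, Dsp, Msgn1 and S100a10. Sfn, an epithelial 14-3-3 protein, was at 674 in ME and 2.71 in NPC, and at 567 to 2180 in the columns of LIF culture and withdrawal.

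Few genes past the rule were well expressed on both sides. At 10 FPKM or more in both libraries, 18 were past it toward NPC and 25 toward ME. Of the genes past the rule 45 were listed at 0 in ME and 23 in NPC.

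Hprt was low in every 46C library of the 2 tables, all of them neural or treated with retinoic acid, so line and fate cannot be told apart. It encodes a purine salvage enzyme and was at 0.509 FPKM in NPC and 0.366 in NSC, both from 46C, and at 59.4 in ME and 58.5 to 95.2 in the 4 columns of other lines. In all 8 libraries of 46C cells in the second table it was at 0.147 or less. Chromosome 8 stood apart as well. Among 5362 genes with at least 5 FPKM in every column, the median difference was -0.40 for the 315 on chromosome 8, against -0.10 to 0.17 on the other 19 chromosomes. Chromosome 8 genes were also lower than in ME in NSC (-0.43), in the day 0 mean (-0.35), at day 4 (-0.21) and in the day 6 mean (-0.15), while NPC minus the day 0 mean was -0.04. Sox1, Irx3, Tubb3, Junb and Pdlim3 lie on this chromosome, and its part in their values was not tested. With each chromosome centred on its median, the difference of Tubb3 went from 5.30 to 5.69 and that of Pdlim3 from -5.81 to -5.41. Of 696 chromosome 8 genes 22 were past the rule toward NPC and 21 toward ME. By this count chromosome 8 was close to the shares over all genes, 3.24% toward NPC and 2.62% toward ME.

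**Figure D5:**
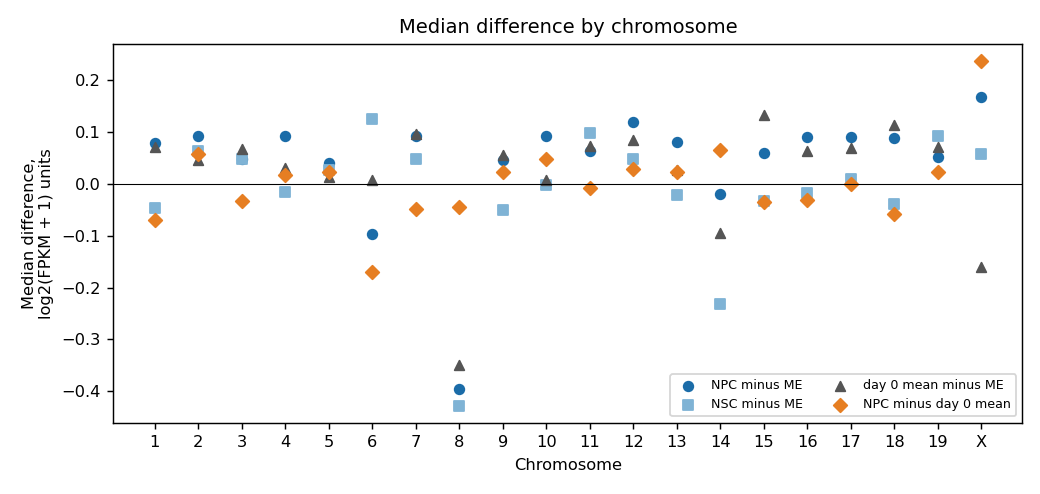
Median difference in log2(FPKM + 1) units (vertical axis) over genes with at least 5 FPKM in all 7 columns, by chromosome (horizontal axis), for NPC, NSC and the day 0 mean against ME and for NPC against the day 0 mean. Each difference against ME is lowest at chromosome 8 (-0.40 for NPC), where NPC minus day 0 is near 0.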

How the data were processed

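FPKM per gene were deposited by the authors in 2 tables; the unit is judged from the values, since no header names it. Per the submitters' processing notes, TopHat2 2.0.11, Bowtie 1.0.0, CASAVA and MACS 1.4.2 were used on build mm9, in roles that are not stated; which program made the FPKM is not given in the sources. From the table of 39067 entries, 11 with a repeated symbol and 1 with a blank value were left out. Starts are given from 1. Differences are log2(FPKM + 1) of NPC minus ME (Python 3.11.15, pandas 2.3.3, numpy 2.4.6), with the filter of at least 1 FPKM in at least 2 of 7 columns, the size rule of 2 log2 units (4-fold) and no test. The calculation was tested on simulated data. The comparison, its 49 gene lists (which overlap) and the motifs shown were chosen with earlier results of these data known. Named were Pax6, T, Eomes and Sox1, the 15 largest differences per direction among current symbols with at least 10 FPKM, the leading members of each list, HOX genes, Haunt and families split between the fates. Other pseudocounts, filters, a scaling and size rules were tried. Members were matched to RefSeq promoters by symbol. Genes with near-identical copies, such as Gapdh (22.3 and 12.7 FPKM) and Ppia (1.53 and 0.198), are uncertain. Some genes are not reported here. An exact 0 may be a failed estimate.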

Additional observations from a re-analysis of the deposited data

How the results depend on the processing

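With 1 library per side, no library could be left out, and counts and medians carry no error from replicates. No paired analysis was possible because NPC and ME are single libraries and the result comes from no test. The counts higher in NPC and higher in ME, 405 and 328, became 960 and 758 with a pseudocount of 0.1, 111 and 105 with 5, 1646 and 1113 at a size rule of 1 log2 unit, and 133 and 122 at 3. The median of the neural plate list, 3.85, became 4.31 and 2.38 with pseudocounts of 0.1 and 5, and that of the streak list, -3.44, became -4.87 and -2.20. With no filter or with at least 1 FPKM in NPC or ME the counts were 475 and 334, scaled by the median ratio of the libraries 373 and 336, without unnamed loci 383 and 311, without genes listed at 0 360 and 305, and, chosen after seeing the data, with each chromosome centred on its median 378 and 341. The median of 5 dorsal neural tube factors turned from 2.88 to -3.65 without genes listed at 0, which leaves out Pax3 and Pax7. Of the genes that passed the filter 246 were listed at 0 in ME and 150 in NPC.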

Other observations

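The genes in this section were chosen after their values were seen. Several genes known from the interferon response and antigen processing were higher in ME past the rule, and others were short of it; no fixed list or count stands behind them. The guanylate-binding proteins Gbp2, Gbp2b and Gbp3 were at 57.0, 89.6 and 30.3 FPKM in ME and at 0.0644, 0.152 and 0.193 in NPC. The immunoproteasome subunits Psmb8 and Psmb10 were at 53.5 and 39.6 in ME against 0.895 and 1.26, while the constitutive subunits Psmb5, Psmb6 and Psmb7 differed by -0.52, 0.23 and 0.01 log2 units. The peptide transporter Tap2 was at 18.0 and 0.760, its partner Tapbp at 57.4 and 2.68, and the transcription factor Irf1 at 64.0 and 3.84, but Tap1 was at 5.72 and 5.03. Also short of the rule were the third immunoproteasome subunit Psmb9 (-1.42 log2 units), H2-K1 (-1.37), H2-D1 (-0.69) and B2m (-1.41). Psmb8 was at 1.95 in the day 0 mean, 48.5 at day 4, 34.2 in the day 6 mean and 0.0295 in NSC. Gbp2b was at 5.49 in the day 0 mean, 42.4 in the day 2 mean, 0.117 at day 4 and 67.5 in the day 6 mean. Psmb10 lies on chromosome 8.

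A group of 3 neighbouring genes on chromosome 19 (build mm9) was higher in NPC than in any other column. Jak2, a cytokine receptor kinase (29326318 to 29387570), was at 28.9 FPKM in NPC and 4.29 in ME. Insl6 (29395844 to 29399808) and Rln1 (29406245 to 29409160), both of the relaxin family, were at 187 and 40.1 in NPC and at 6.91 and 0.377 in ME. In NSC the 3 genes were at 8.50, 0.760 and 0.381, and in the 8 libraries of 46C cells under retinoic acid Insl6 ranged from 3.35 to 8.93. The nearby genes Rcl1 (20.5 in NPC, 45.5 in ME) and Plgrkt (20.6 and 9.06) were not past the rule.

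Values of 3 noncoding entries higher in NPC past the rule follow. 2610017I09Rik, on chromosome 1, was at 47.6 FPKM in NPC, 63.6 in NSC and 0.0803 in ME. In the 4 columns of LIF culture and withdrawal it was at 0.0298 or less. Sox2ot, which overlaps Sox2, was at 17.1 in NPC and 0.0632 in ME. 1190002F15Rik was at 23.2 in NPC and 39.0 in NSC, and listed at 0 in ME. It ranged from 3.27 to 8.45 in the 4 columns of LIF culture and withdrawal.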
